A study of Homo sapiens with 6 samples.

Results

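The transcripts of 10 genes of the heat shock and chaperone-adaptor network were followed in HCT116 cells: the heat shock factors HSF1 and HSF2, the small heat shock proteins HSPB1, HSPB8 and CRYAB, the BAG proteins BAG1, BAG2 and BAG3, the ubiquitin ligase STUB1 and the collagen chaperone SERPINH1. They were chosen by gene symbol, and each symbol matched 1 row, giving 10 of the 61806 genes in the deposited table. HCT116 is an established human colorectal carcinoma line, grown here in McCoy's 5A medium with serum and antibiotics. Of 6 RNA-seq libraries, 3 came from cells with a control short interfering RNA (si-NC, genotype labelled wildtype) and 3 from cells with one against STRIP2 (si-STRIP2, labelled STRIP2 knockdown). STRIP2 is a scaffold protein of STRIPAK, an assembly that joins a phosphatase to kinases. The sequence, dose and duration of the interfering RNAs are not given in the sources used here, and the labels do not say whether replicate libraries are separate cultures, so p-values measure only the spread between these libraries. The comparison asked how transcript levels differed between si-STRIP2 and si-NC cells.

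Heat shock factors are transcription factors that form trimers upon protein damage and bind heat shock elements, arrays of inverted GAA units in the promoters of chaperone genes. Small heat shock proteins hold unfolded proteins in a soluble state without using ATP. BAG proteins bind the ATPase domain of HSP70 through a shared domain, release its nucleotide and pass its clients on: BAG1 towards the proteasome, BAG3, together with HSPB8, towards autophagy. STUB1 (also called CHIP) attaches ubiquitin to clients held by HSP70 and HSP90, and BAG2 restrains it.

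Total counts ranged from 17184963 to 21721218 per library. The Pearson correlation of log2(FPKM + 1) across genes was 0.996 to 0.997 within groups and 0.983 to 0.985 between them, and genes are not independent replicates. STRIP2 was lower in every si-STRIP2 library, at 2.71, 2.53 and 2.58 FPKM against 3.19, 3.77 and 3.81 (log2 fold change -0.46 ± 0.083 SE; edgeR adjusted p = 1.62e-05). FPKM is the count scaled to exon length and to the library total. Among 11 colorectal epithelial markers, 6 reached 1 FPKM, namely EPCAM, CDH1, KRT8, KRT18, KRT19 and CDX2. CDX1 had no count, and VIL1, LGALS4 and CEACAM5 had at most 3, 5 and 1 counts in a library. The summed level of the 11 markers was 691 to 721 FPKM in si-NC and 668 to 691 in si-STRIP2 libraries. Single markers moved in both directions. By edgeR, CDH1 (36.6 to 24.2 FPKM, adjusted p = 1.57e-14), KRT20 (0.627 to 0.313 FPKM), KRT18 and EPCAM were lower, CDX2 (2.51 to 3.28 FPKM) and KRT19 were higher, and KRT8 did not pass. Their part in the results was not tested. Fibroblast markers summed to 3.65 to 4.17 and 3.28 to 3.52 FPKM, with COL1A1 and ACTA2 alone reaching 1 FPKM, and endothelial and immune markers to at most 0.97. Fewer cells of a type and less RNA per cell cannot be told apart in bulk RNA.

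The promoters of some members are shown first. RefSeq windows on GRCh38.p14, from 250 bases before to 50 after the gene start, were matched for 7 of the 10 genes, namely HSF2, HSPB1, HSPB8, BAG1, BAG2, BAG3 and SERPINH1. Both strands were searched for a 3-unit element, GAANNTTC followed directly by NNGAA, and for its 2-unit parts GAANNTTC and TTCNNGAA, which lie within the longer element and read the same on both strands. The 250 bases before the start are printed 5′ to 3′ for HSPB1, BAG3 and SERPINH1, which rose in si-STRIP2 cells, and for HSPB8, a small heat shock protein gene that did not pass the test. Capitals mark matches.
HSPB1, chr7:76302423-76302672, plus strand: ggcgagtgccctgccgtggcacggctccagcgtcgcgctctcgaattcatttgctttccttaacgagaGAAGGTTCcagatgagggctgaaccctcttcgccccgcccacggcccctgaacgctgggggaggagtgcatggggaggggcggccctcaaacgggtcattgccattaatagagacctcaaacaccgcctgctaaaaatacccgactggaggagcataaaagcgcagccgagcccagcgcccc
HSPB8, chr12:119178681-119178930, plus strand: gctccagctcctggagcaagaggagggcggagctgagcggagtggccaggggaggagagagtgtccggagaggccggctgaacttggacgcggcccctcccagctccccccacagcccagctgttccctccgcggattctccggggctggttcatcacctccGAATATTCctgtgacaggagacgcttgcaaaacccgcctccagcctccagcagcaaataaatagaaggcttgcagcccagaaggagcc
BAG3, chr10:119651130-119651379, plus strand: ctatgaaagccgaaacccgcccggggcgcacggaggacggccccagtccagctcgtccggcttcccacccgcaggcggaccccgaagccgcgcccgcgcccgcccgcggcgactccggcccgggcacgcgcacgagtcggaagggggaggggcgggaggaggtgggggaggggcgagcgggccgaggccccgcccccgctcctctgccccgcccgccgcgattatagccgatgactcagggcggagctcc
SERPINH1, chr11:75562003-75562252, plus strand: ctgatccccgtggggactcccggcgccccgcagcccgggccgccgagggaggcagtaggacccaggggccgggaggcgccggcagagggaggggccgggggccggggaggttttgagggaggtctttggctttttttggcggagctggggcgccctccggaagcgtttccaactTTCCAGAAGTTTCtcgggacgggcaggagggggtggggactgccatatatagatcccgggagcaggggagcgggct

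Of the 7 members with a window, SERPINH1 alone held the 3-unit element, at bases -76 to -64 from the start, read on the minus strand. Of all 35116 windows of this length, 0.490% held that element, and of the 16074 windows of tested genes 0.373%. The part GAANNTTC was found in 4 of the 7 member windows, in 6.77% of all windows and in 5.00% of those of tested genes. It lay in HSPB1 at -182 to -175, in HSPB8 at -88 to -81 and 5 to 12, in BAG2 at -124 to -117 and in SERPINH1 within the longer element. TTCNNGAA was found in 1 member window, that of SERPINH1, in 7.74% of all windows and in 6.26% of those of tested genes. No match was found in the windows of BAG1, BAG3 and HSF2, which says only that these letters are not there. The RefSeq start lies 7376 bases inside the deposited gene for HSPB8, 197 for SERPINH1 and 12 for BAG1, so the matches of HSPB8 and SERPINH1 lie within the deposited gene. For comparison, 3 of 19 matched windows of classical heat shock factor targets (HSPA8, DNAJA1 and CHORDC1) held the 3-unit element. Of these 19 windows, 5 held GAANNTTC and 3 held TTCNNGAA. A match is a description of the letters and not a bound site.

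**Figure D1:**
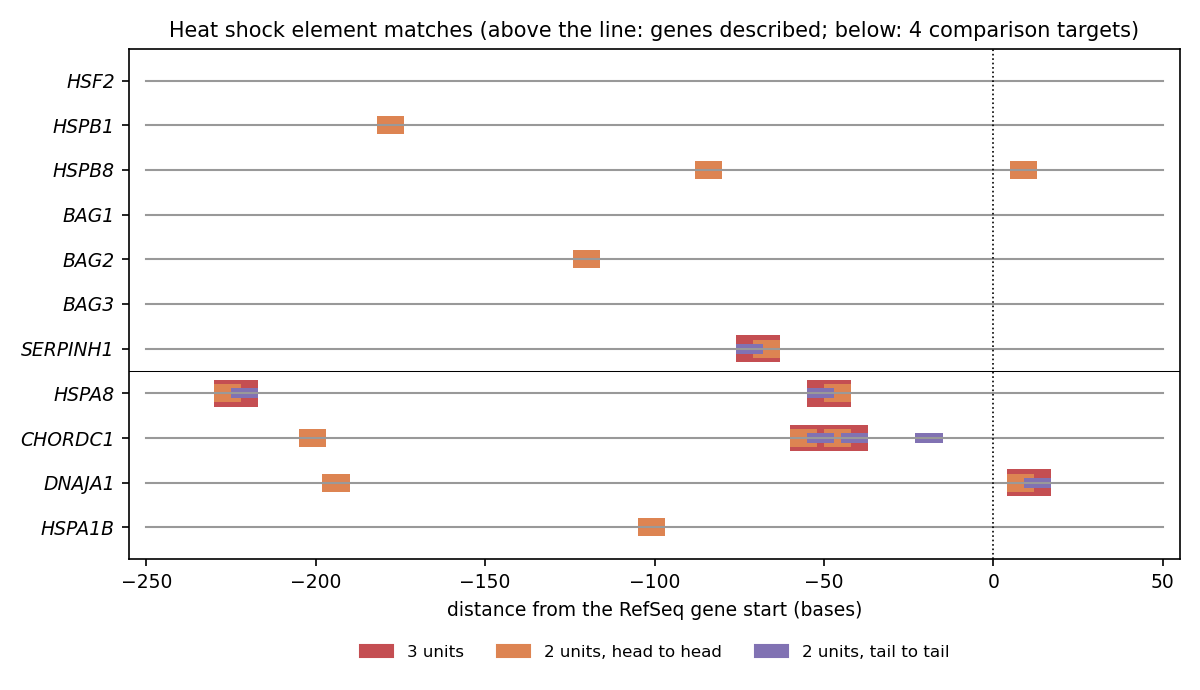
Position of heat shock element matches, in bases from the RefSeq gene start (horizontal axis), in the windows of 7 members (above the line) and of the 3 classical targets with the longer element and HSPA1B (below). SERPINH1 is the member with a 3-unit match, and HSPB1, HSPB8 and BAG2 hold 2-unit matches.

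In si-STRIP2 cells, 4 of the 9 members that could be tested rose and 0 fell. HSPB1 rose 1.33-fold, BAG3 1.27-fold, HSF2 1.13-fold and SERPINH1 1.09-fold. HSF1, HSPB8, BAG1, BAG2 and STUB1 did not pass the test, and CRYAB had too few counts to be tested. Over all 15687 genes tested, 54.8% passed an edgeR adjusted p of 0.05 (27.8% higher and 27.0% lower), against 44.4% of the tested members. The share of members called is thus near the background. The FPKM groups did not overlap for 4 of the 9 tested members, against 58.6% of all tested genes. The median log2 fold change was 0.040 over the 9 tested members and 0.014 over all tested genes. The median of the members ranged from 0.023 to 0.11 over the 18 alternative settings, and was 0.11 without si-NC replicate 1 or si-STRIP2 replicate 1, and 0.081 and 0.077 without replicate 2 of si-NC or of si-STRIP2. DESeq2 gave a p-value to 32799 genes, but its default filter on mean count can leave genes without an adjusted p. The number adjusted was not recorded, so the 6660 genes it called give no background share. The members among these 6660 were 2, HSPB1 and BAG3.

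**Figure D2:**
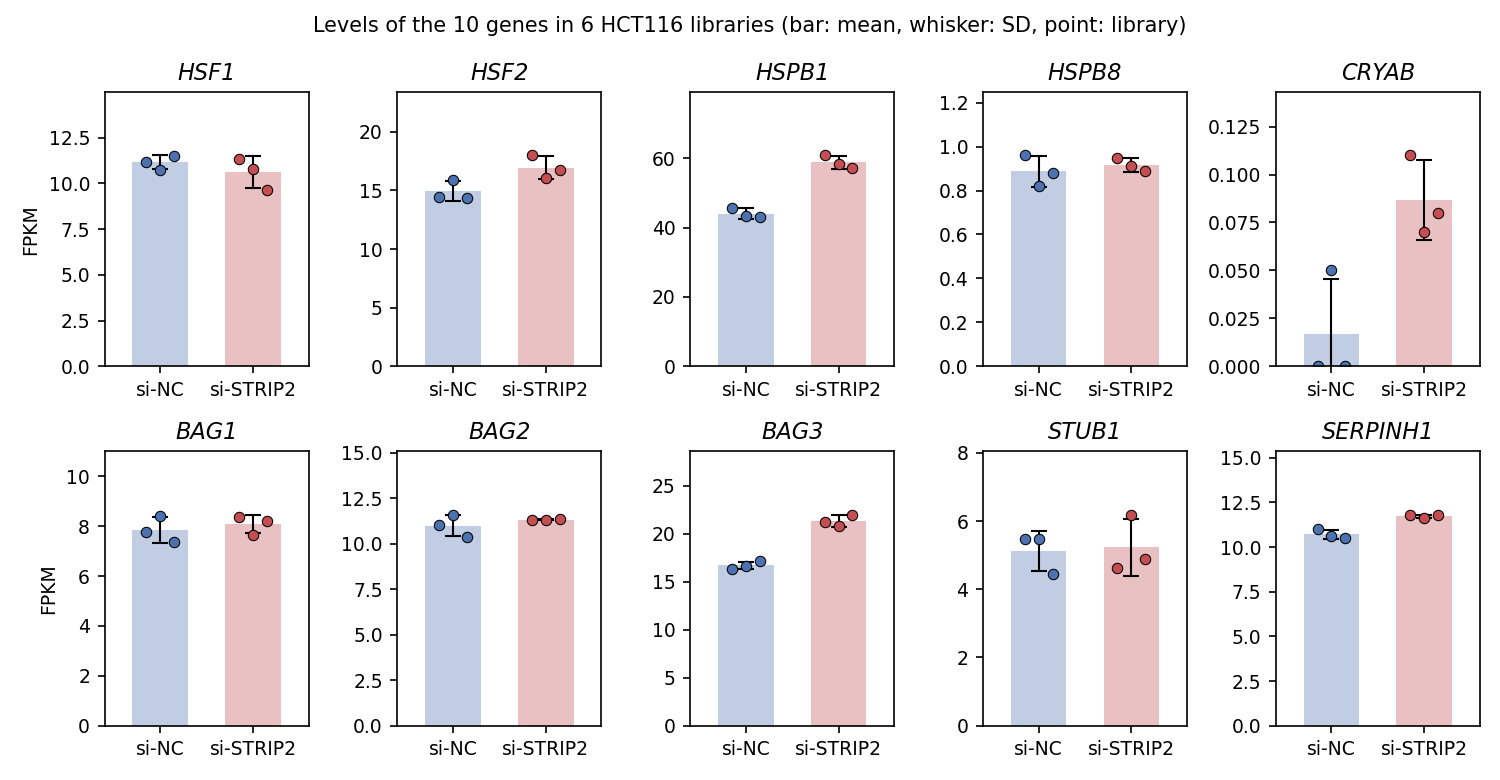
FPKM (vertical axis, a separate scale for each gene, from 0) of the 10 genes in 3 si-NC and 3 si-STRIP2 libraries. Bars are means, whiskers SD and points libraries; the groups are apart for HSPB1, BAG3, HSF2, SERPINH1 and CRYAB, the last with no value above 0.11 FPKM.

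Per length of exon, HSPB1 had the highest level of the members in si-NC cells, 44.0 FPKM. BAG3 followed at 16.7 and HSF2 at 14.9, and the libraries of these 3 genes did not overlap. HSF1 (11.1 FPKM), BAG2 and SERPINH1 (10.7) came next, and BAG2, which lay between, overlapped with both. BAG1 at 7.86 and STUB1 at 5.13 FPKM were lower, and HSPB8 at 0.887 was 5.78-fold below STUB1. CRYAB was lowest at 0.0167 FPKM. In si-STRIP2 cells SERPINH1 (11.7 FPKM) stood above BAG2 (11.3) and HSF1 (10.6), of which BAG2 and HSF1 overlapped. FPKM uses the full exonic length of a gene, so the level of a gene with short and long transcripts, such as BAG1 with 7073 exonic bases, depends on which of them the cells use.

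HSF1 (ENSG00000185122, chromosome 8, 144291591 to 144314720, plus strand in the deposited table) encodes the main activator of the heat shock response. Its level was 11.19, 10.74 and 11.51 FPKM in si-NC libraries and 11.35, 10.81 and 9.64 in si-STRIP2 libraries. The groups overlapped, and the third si-STRIP2 library was the lowest of the 6. The log2 fold change was -0.07 with a 95% interval from -0.18 to 0.03 (edgeR adjusted p = 0.239). DGAT1, which overlaps HSF1 on the other strand, held 28.4% as many counts. The library kit is directional, but whether counting used the strand is not given in the sources used here.

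HSF2 (ENSG00000025156, chromosome 6, 122399551 to 122433119, plus strand) encodes a short-lived factor that can form mixed trimers with HSF1. It had 14.48, 15.89 and 14.39 FPKM in si-NC and 17.99, 16.10 and 16.71 in si-STRIP2 libraries. The groups did not overlap, but their nearest libraries, at 15.89 and 16.10, lay close together. HSF2 rose from 14.9 ± 0.841 to 16.9 ± 0.965 FPKM (SD, n = 3), which is 0.18 ± 0.056 (SE) as a log2 fold change (edgeR adjusted p = 0.00647). The call was lost by DESeq2 (adjusted p = 0.0589) and, by edgeR, without si-STRIP2 replicate 1 (adjusted p = 0.0584).

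In FPKM, HSF2 stood to HSF1 as 1.29, 1.48 and 1.25 in si-NC libraries and 1.59, 1.49 and 1.73 in si-STRIP2 libraries. The ratio was higher in each si-STRIP2 library, by 0.26 on the log2 scale of counts. With 3 libraries against 3, the exact 2-sided permutation test cannot go below 0.1, the value it gave here (0.12 adjusted over 6 ratios).

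HSPB1 (ENSG00000106211, chromosome 7, 76302673 to 76304295, plus strand), also called HSP27, encodes a small heat shock protein that forms large oligomers and binds actin. Its counts were 1613, 1219 and 1198 in si-NC and 1853, 1658 and 1597 in si-STRIP2 libraries. In FPKM these were 45.75, 43.39 and 42.95 against 60.80, 58.43 and 57.13. Every si-STRIP2 library lay above every si-NC library by more than the whole spread within a group. The mean rose from 44.0 ± 1.51 to 58.8 ± 1.86 FPKM (SD, n = 3), which is 0.41 ± 0.045 (SE) as a log2 fold change (edgeR adjusted p = 1.38e-09). Of the 4359 genes called higher, 1848 had a larger rise than HSPB1, and the median rise of these genes was 0.37. The 2 pseudogenes named after HSPB1 held 2 counts in all libraries together.

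HSPB8 (ENSG00000152137, chromosome 12, 119171555 to 119224855, plus strand) encodes a small heat shock protein that binds BAG3. It had 75, 51 and 54 counts in si-NC and 64, 57 and 55 in si-STRIP2 libraries. The groups overlapped at 0.96, 0.82 and 0.88 FPKM against 0.95, 0.91 and 0.89. At this depth the log2 fold change was 0.04 with an interval from -0.31 to 0.39 (edgeR adjusted p = 0.870). The estimate for HSPB1, 0.41, lay just above this interval, and the lower bound of HSPB1, 0.32, lay within it. In FPKM, HSPB8 stood to HSPB1 at a ratio of 0.0201 ± 0.00109 in si-NC and 0.0156 ± 2.82e-05 in si-STRIP2 libraries (SD, n = 3). At 64, 57 and 55 counts of HSPB8, with FPKM given to 2 decimals, the latter SD is below counting error. It is therefore no measure of precision. The 2 groups of ratios did not overlap (exact permutation p = 0.1, the smallest possible, adjusted 0.12).

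CRYAB (ENSG00000109846, chromosome 11, 111908564 to 111923722, minus strand), the gene of alpha-B crystallin, was close to the limit of detection. It had 0, 4 and 0 counts in si-NC libraries and 9, 5 and 6 in si-STRIP2 libraries, or 4 counts in all against 20. Scaled to the totals of the groups, the ratio was 5.26 with an exact 95% interval from 1.76 to 21.1, which covers counting error only. The libraries did not overlap between groups (exact permutation p = 0.1). With no filter on low counts, edgeR gave a log2 fold change of 2.27 (adjusted p = 0.0162). DESeq2, with its default filter on mean count, gave one of 2.33 (adjusted p = 0.0978). A level this low, at most 0.11 FPKM, does not tell expression in the cells from stray reads. Of the genes that overlap CRYAB on the other strand, HSPB2 had no count and C11orf52 had 3, which is 12.5% of the counts of CRYAB.

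The rest of the small heat shock protein family gave little signal. Of 8 other members, 1 was tested. HSPB11, which encodes a subunit of the ciliary transport complex, had 10.1 and 10.3 FPKM in si-NC and si-STRIP2 cells (log2 fold change 0.03, interval -0.10 to 0.16, edgeR adjusted p = 0.707). CRYAA, HSPB2, HSPB3 and HSPB9 had no count in any library, and HSPB6, HSPB7 and ODF1 reached at most 12, 3 and 1 counts. HSPB1 thus held nearly all the measured transcript of the classical small heat shock proteins.

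BAG3 (ENSG00000151929, chromosome 10, 119651380 to 119677819, plus strand) encodes the adaptor that links HSP70 to small heat shock proteins and to selective autophagy. It had 972, 790 and 805 counts in si-NC and 1090, 994 and 1036 in si-STRIP2 libraries. In FPKM these were 16.35, 16.67 and 17.11 against 21.21, 20.77 and 21.98, with no overlap. BAG3 rose from 16.7 ± 0.382 to 21.3 ± 0.612 FPKM (SD, n = 3), which is 0.35 ± 0.050 (SE) as a log2 fold change (edgeR adjusted p = 3.75e-07). Among genes called higher, 2304 of 4359 rose more.

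BAG1 (ENSG00000107262, chromosome 9, 33247820 to 33264720, minus strand) encodes the BAG protein that carries a ubiquitin-like domain. Its values were 7.78, 8.42 and 7.37 FPKM in si-NC and 8.39, 7.67 and 8.22 in si-STRIP2 libraries, with the groups intermixed. The log2 fold change was 0.04 with an interval from -0.07 to 0.15 (edgeR adjusted p = 0.530). The FPKM ratio of BAG3 to BAG1 came to 2.10, 1.98 and 2.32 in si-NC and 2.53, 2.71 and 2.67 in si-STRIP2 libraries. Each si-STRIP2 library was above each si-NC library, by 0.31 on the log2 scale of counts (exact permutation p = 0.1, adjusted 0.12).

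BAG2 (ENSG00000112208, chromosome 6, 57172326 to 57189833, plus strand) had 11.03, 11.58 and 10.38 FPKM in si-NC and 11.30, 11.30 and 11.34 in si-STRIP2 libraries. The 3 si-STRIP2 values lay inside the si-NC range. The log2 fold change was 0.04 with an interval from -0.06 to 0.13 (edgeR adjusted p = 0.507). RAB23, on the other strand, held 35.9% as many counts as BAG2 and was lower in si-STRIP2 cells (log2 fold change -0.28, edgeR adjusted p = 0.000654), so the value of BAG2 is uncertain if counting ignored the strand.

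**Figure D3:**
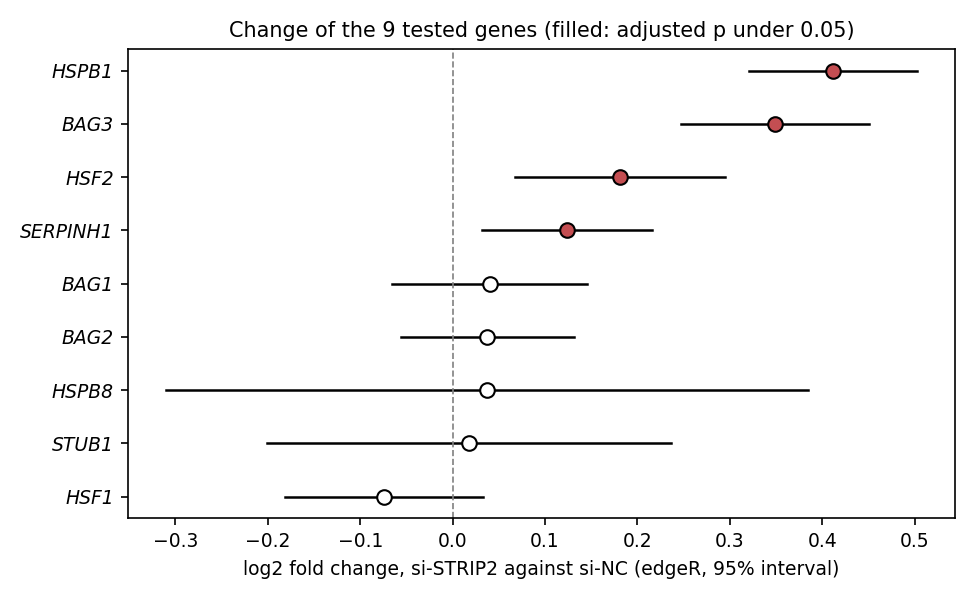
Log2 fold change of si-STRIP2 against si-NC (horizontal axis) with its 95% interval for the 9 tested members; filled points passed an adjusted p of 0.05. HSPB1 and BAG3 lie at 0.41 and 0.35, HSF2 and SERPINH1 at 0.18 and 0.12, and the intervals of the other 5 members include 0.

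Of the other BAG genes and HSP70 nucleotide exchange factors, all 7 passed the edgeR test, 4 higher and 3 lower, against 54.8% of all genes. The median log2 fold change was 0.25. BAG4, which binds death receptor tails, rose from 15.15, 15.03 and 14.34 FPKM to 17.99, 17.70 and 18.35 (log2 fold change 0.28). BAG6, which sorts tail-anchored and mislocalized proteins, rose by 0.25 on the same scale, from 28.5 to 34.0 FPKM. BAG5 was lower, at 15.07, 15.74 and 15.64 FPKM against 17.36, 17.53 and 16.51 (log2 fold change -0.15). HSPBP1, a cytosolic exchange factor, rose by 0.28. Of the organelle factors, mitochondrial GRPEL1 rose by 0.34 while GRPEL2 (-0.21) and SIL1 of the endoplasmic reticulum (-0.49) fell. HSPBP1 had the highest adjusted p of the 7, 0.00479 by edgeR.

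STUB1 (ENSG00000103266, chromosome 16, 680224 to 682870, plus strand) showed no separation of the groups. It had 276, 219 and 177 counts in si-NC and 201, 251 and 195 in si-STRIP2 libraries, or 5.48, 5.46 and 4.44 against 4.62, 6.19 and 4.88 FPKM. The second si-STRIP2 library was the highest and the third si-NC library the lowest. The log2 fold change was 0.02 with an interval from -0.20 to 0.24 (edgeR adjusted p = 0.901). JMJD8 overlaps STUB1 on the other strand, held 311% as many counts and rose by 0.35 on the log2 scale (edgeR adjusted p = 3.35e-06), which leaves the value of STUB1 uncertain. The FPKM ratio of BAG2 to STUB1 came to 2.01, 2.12 and 2.34 in si-NC and 2.45, 1.83 and 2.32 in si-STRIP2 libraries, with the groups overlapping (exact permutation p = 1.0).

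Of 13 ubiquitin enzymes that work with STUB1, 11 (84.6%) passed, against 54.8% of all genes, 4 higher and 7 lower, with a median log2 fold change of -0.14. UBE2W, which starts ubiquitin chains on STUB1 itself, had 15.59, 15.73 and 14.95 FPKM in si-NC and 11.85, 11.95 and 11.75 in si-STRIP2 libraries (log2 fold change -0.38, edgeR adjusted p = 9.20e-10). UBE2D2, a general partner of ubiquitin ligases, was also lower (-0.29), as was UBE2V2 (-0.20). UBE4B, a ligase with the same U-box as STUB1, rose from 7.19, 6.97 and 6.96 to 9.33, 10.30 and 9.76 FPKM (log2 fold change 0.47, edgeR adjusted p = 1.94e-10). UBE2E3 (0.22) and ATXN3 (0.23), which trims the chains STUB1 builds, rose less.

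SERPINH1 (ENSG00000149257, chromosome 11, 75562056 to 75572783, plus strand), also called HSP47, encodes the chaperone of procollagen in the endoplasmic reticulum. It had 11.01, 10.60 and 10.53 FPKM in si-NC and 11.78, 11.60 and 11.77 in si-STRIP2 libraries. The groups did not overlap, and their nearest libraries were 11.01 and 11.60. SERPINH1 rose from 10.7 ± 0.259 to 11.7 ± 0.101 FPKM (SD, n = 3), which is 0.12 ± 0.045 (SE) as a log2 fold change (edgeR adjusted p = 0.0205). The call was lost without si-NC replicate 2, si-NC replicate 3 or si-STRIP2 replicate 3 (edgeR adjusted p = 0.0773, 0.0538 and 0.0717), with no filter on low counts (edgeR adjusted p = 0.0609) and by DESeq2 (adjusted p = 0.118).

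The collagen maturation genes moved in both directions. Of 19 tested, 7 were higher and 6 lower by edgeR, or 68.4% called against 54.8% of all genes. The median log2 fold change was -0.07, and -0.09 to -0.02 over the alternative settings. COLGALT1, a collagen galactosyltransferase, rose from 14.1 to 18.2 FPKM (log2 fold change 0.37), FKBP10, a collagen chaperone with prolyl isomerase activity, by 0.41 and PPIB, which isomerizes prolines in procollagen, by 0.18. MIA2, which helps load collagen into transport vesicles, fell from 14.92, 14.97 and 14.39 to 7.67, 7.91 and 7.84 FPKM (log2 fold change -0.92). The prolyl hydroxylase subunit P4HA1 (-0.36) and the lysyl hydroxylase PLOD2 (-0.26) also fell.

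Few collagens themselves were abundant. Of 19 chains, 14 were tested, of which 2 were higher and 6 lower, or 57.1% called, near the 54.8% of all genes. Their median log2 fold change was -0.16. COL12A1 (0.27, but 0.16 without si-NC replicate 1) and COL4A5 (0.22) rose. COL6A3 fell from 55, 40 and 52 counts to 15, 8 and 11 (log2 fold change -2.04, edgeR adjusted p = 1.03e-07), and COL17A1 (-0.84) and COL4A6 (-0.69) fell as well. These 3 chains were below 1 FPKM in both groups. The more abundant COL6A1 (10.7 to 9.20 FPKM, -0.22), COL6A2 (10.9 to 9.78 FPKM, -0.17) and COL18A1 (4.35 to 3.71 FPKM, -0.23) fell less. COL1A1, the best known client chain of SERPINH1, had 2.28 and 2.04 FPKM (log2 fold change -0.16, edgeR adjusted p = 0.0898), and COL1A2 had no count.

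The classical heat shock factor targets rose together while HSF1 did not pass the test. Of 22 targets tested, 19 were higher and 2 lower by edgeR, or 95.5% called against 54.8% of all genes (27.8% higher and 27.0% lower), with a median log2 fold change of 0.63 against 0.014 for all genes and 0.040 for the members. Many of these genes were already known to have risen in these libraries, so the count is no independent evidence. HSPA8, the constitutive HSP70 to which BAG proteins bind, had 63.58, 64.30 and 59.65 FPKM in si-NC and 185.12, 200.19 and 198.83 in si-STRIP2 libraries (log2 fold change 1.64). DNAJA1, a J-domain partner of HSP70, rose by 1.03 and HSP90AA1, the inducible cytosolic HSP90, by 1.03 on the log2 scale. Among the targets that fell was DNAJB4 (log2 fold change -0.15), a J-domain partner of HSP70, whose call was lost by DESeq2 (adjusted p = 0.0830) and, by edgeR, with no filter (adjusted p = 0.0534) and without si-STRIP2 replicate 1 (adjusted p = 0.105).

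**Figure D4:**
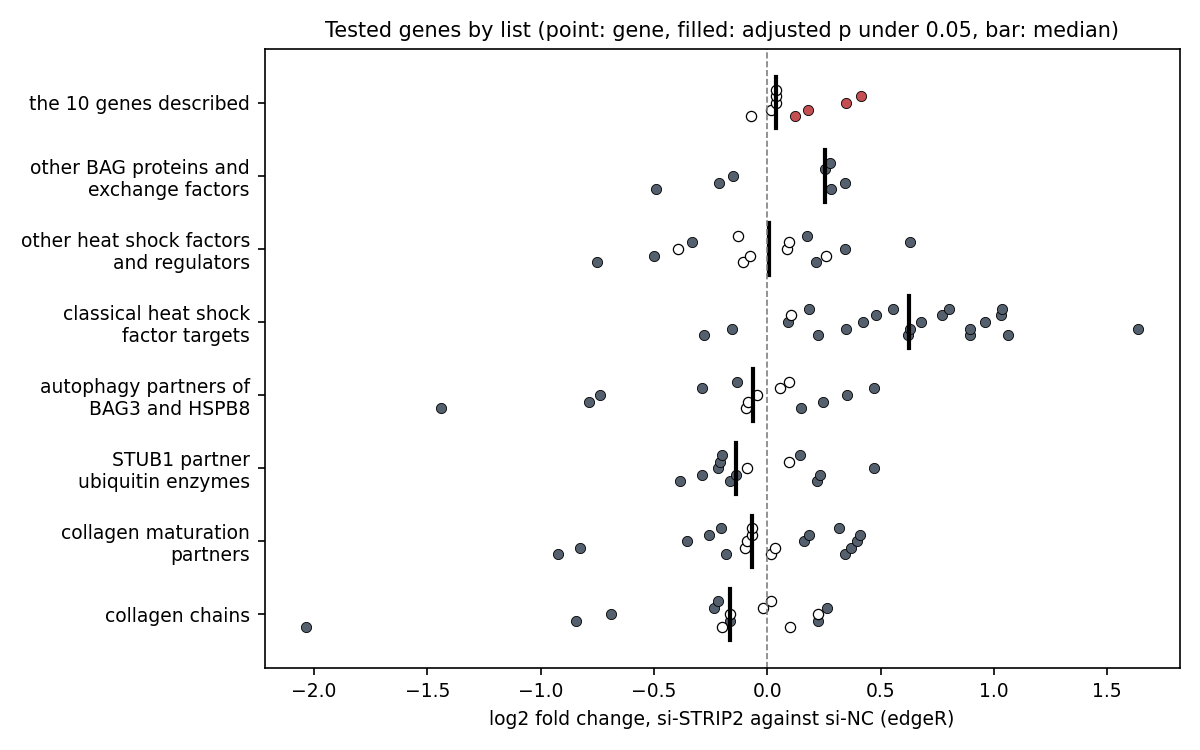
Log2 fold change of si-STRIP2 against si-NC (horizontal axis) of each tested gene in 8 gene lists; filled points passed an adjusted p of 0.05 and bars are medians. The median is 0.63 for the classical targets and 0.040 for the members, whose largest value, that of HSPB1, is 0.41.

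Measured against HSPA8, the transcripts of BAG3 and HSPB1 were lower in si-STRIP2 cells. Both transcripts rose (log2 fold changes 0.35 and 0.41), but HSPA8 rose more (1.64). The 2 ratios thus restate these changes and are no further evidence. They were chosen after the values were seen, and are among the 6 over which p-values were adjusted. The FPKM ratio of BAG3 to HSPA8 came to 0.257, 0.259 and 0.287 in si-NC and 0.115, 0.104 and 0.111 in si-STRIP2 libraries, a difference of -1.29 on the log2 scale of counts. That of HSPB1 to HSPA8 was 0.720, 0.675 and 0.720 against 0.328, 0.292 and 0.287, a difference of -1.22. Neither pair of groups overlapped, and each exact permutation p was 0.1, the smallest possible (0.12 adjusted over the 6 ratios).

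**Figure D5:**
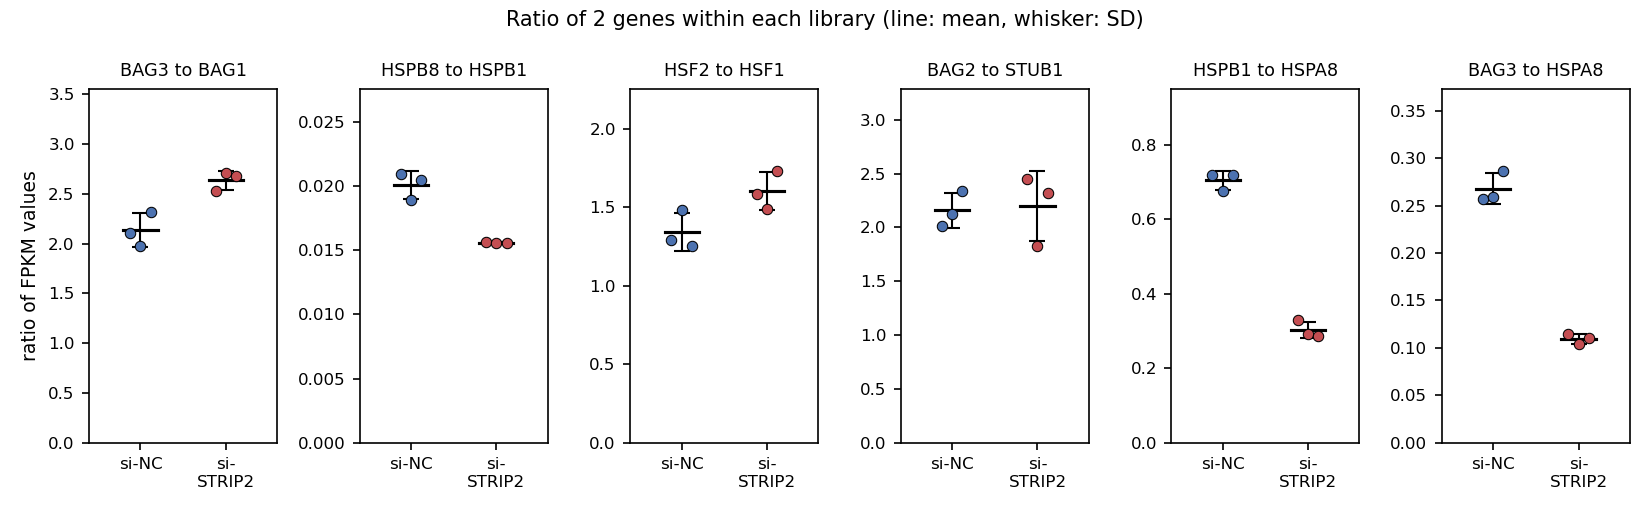
Ratio of the FPKM values of 2 genes within each library (vertical axis, from 0); points are libraries, lines means and whiskers SD. BAG3 to BAG1 and HSF2 to HSF1 are higher in si-STRIP2 libraries, the ratios to HSPB1 and HSPA8 are lower, and BAG2 to STUB1 overlaps.

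Among other heat shock factors, HSF4 was measurable near 1 FPKM and did not pass, with library values of 0.92, 0.77 and 1.2 against 1.06, 1.3 and 1.1 (log2 fold change 0.26, interval -0.08 to 0.60, edgeR adjusted p = 0.190). HSF5, HSFX1, HSFX2, HSFY1 and HSFY2 had at most 4 counts. HSBP1, which binds the trimerization region of HSF1, had 26.31, 26.50 and 23.81 FPKM against 27.85, 26.38 and 27.42 (log2 fold change 0.09, edgeR adjusted p = 0.0770). Its relative HSBP1L1 (-0.11, edgeR adjusted p = 0.266) and HSF2BP, which binds HSF2 (-0.40, edgeR adjusted p = 0.388), did not pass either.

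Of the 14 heat shock factors and regulators tested, 4 were higher and 3 lower by edgeR, or 7 of 14 called, near the 54.8% of all genes. The median log2 fold change was 0.0051 and took either sign in fits without 1 library (-0.0082 to 0.030). RPA1, a replication protein that helps HSF1 reach nucleosomal promoters, rose by 0.63 on the log2 scale, from 28.8 to 44.6 FPKM. PLK1, a mitotic kinase that phosphorylates HSF1, rose by 0.34 and CDC20, an activator of the ligase that degrades HSF2, by 0.21. The acetyltransferases EP300 (-0.33) and CREBBP (-0.50), which act on HSF1, fell. XBP1, a transcription factor of the endoplasmic reticulum stress response, fell from 54.73, 58.99 and 53.85 to 32.50, 34.25 and 32.90 FPKM (log2 fold change -0.75).

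Of 14 autophagy and transport partners of BAG3 and HSPB8, 4 were higher and 5 lower by edgeR, or 64.3% called against 54.8% of all genes. The median log2 fold change was -0.07, and -0.01 without si-STRIP2 replicate 1. MAP1LC3B, the autophagosome protein LC3B, fell from 117.16, 119.21 and 114.28 to 44.34, 42.23 and 42.89 FPKM (log2 fold change -1.44, edgeR adjusted p = 3.40e-24). WIPI1 (-0.79), which acts early in autophagosome formation, and ATG5 (-0.29), which promotes LC3 lipidation, fell too. SYNPO2, which BAG3 binds through its WW domain, had 96, 78 and 74 counts in si-NC and 59, 43 and 40 in si-STRIP2 libraries (log2 fold change -0.74, edgeR adjusted p = 0.000380). Its level was low, at 0.23, 0.23 and 0.22 FPKM against 0.16, 0.13 and 0.12. FLNA, a filamin, rose by 0.47, from 22.3 to 31.0 FPKM, while the muscle filamin FLNC was lower by a small amount (-0.13). The dynein light chain DYNLL1 rose by 0.35 and the heavy chain DYNC1H1 by 0.24 (0.16 without si-NC replicate 1 and 0.39 without si-NC replicate 2). The libraries of DYNC1H1 overlapped between groups, and its call was lost by DESeq2 (adjusted p = 0.207), by limma on log2(FPKM + 1) (adjusted p = 0.0812) and log2(FPKM + 0.1) (adjusted p = 0.0824), and with the robust option of edgeR (adjusted p = 0.208). SQSTM1, the receptor p62, did not pass (-0.09, edgeR adjusted p = 0.0511).

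The genes whose pattern over the 6 libraries was nearest to that of HSPB1, by Euclidean distance of centred log2 CPM, were NARF (0.0424), RPL18 (0.0443) and MPP3 (0.0553). As many as 1526 genes lay within 0.25 of HSPB1, so these 3 are among many with like values. No member was called lower.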

How the data were processed

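Total RNA came from a TRIzol extraction, oligo(dT) selected its poly(A) fraction and the library kit was directional, per the labels' protocols. The submitters' processing notes name bcl2fastq 2.20.0.422, FastQC 0.10.1, cutadapt 1.9.1, HISAT2 2.2.1, HTSeq 0.6.1 and GRCh38.p13, with no role or order. Annotation release and strand setting are not given in the sources used here.

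The authors deposited a raw count per gene and library (whole numbers, 0 rows naming no gene), and an FPKM value, which differed from a recomputation by at most 0.005. Genes were kept by filterByExpr (minimum count 10), leaving 15687 with 99.8% of counts. The edgeR 4.0.16 quasi-likelihood test (R 4.3.3, TMM, group only, 2-sided) was adjusted by Benjamini-Hochberg over all genes tested. Standard errors are the absolute log2 fold change over the square root of F. The 95% interval uses the test's degrees of freedom. Precision is set by counts from 24 (CRYAB) to 9138 (HSPB1) over all libraries. On simulated counts for this comparison over 15687 genes, the test recovered 61.0% of genes changed by 0.4 and 93.7% of genes changed by 1 on the log2 scale. The simulation changed 105 genes by 0.4 and 95 by 1, and gave all genes the common dispersion. In the data 54.8% of genes passed, so these shares are not the shares recovered among the members. Lists were counted, not tested as sets. Log2 ratios of counts within a library were compared by exact permutation. That of CRYAB to HSPB1 could not be formed, as CRYAB had libraries at 0. DESeq2 1.42.0, run with no filter before the fit but with its default filter on mean count, and limma 3.58.1 gave alternatives. Members and lists were chosen with earlier results of these data known. Named are all members, the tested heat shock factor, small heat shock protein and BAG genes, and the 3 called genes with the smallest adjusted p in each direction of each other list, and other genes named were chosen after their values were seen. 1 gene that the rule names is not reported here.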

Additional observations from a re-analysis of the deposited data

How the results depend on the processing

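Results were recomputed under 18 alternative settings, with 8 for the ratios. HSPB1 (log2 fold change 0.39 to 0.45) and BAG3 (0.32 to 0.37) were called higher under each of their 18. Members called numbered 2, both higher, under DESeq2, where 6660 genes were called but the number given an adjusted p was not recorded. In fits without 1 library the members called numbered 3 to 4. Of all genes, 7690 of 16043 (without si-NC replicate 1) to 8494 of 16031 (without si-NC replicate 3) were called there. HSF2 and SERPINH1 made the difference. The median log2 fold change of all tested genes ranged from 0.0021 to 0.046. No pairing of the libraries by replicate number was seen. The deviations of same-numbered libraries from their group means correlated at -0.086, -0.013 and -0.072, and those of differently numbered ones at -0.0405 to 0.1119. Deviations within a group depend on each other, so these correlations cannot exclude a pairing. With the replicate block, 4 members were called, HSPB1 at 0.41, and STRIP2 was at -0.46; 20 classical targets passed against 21. Classical targets called lower were 1 in place of 2 with no filter and under DESeq2, and 1 to 2 without 1 library. Autophagy partners called fell to 5 (2 higher, 3 lower) under limma with either pseudocount (1 or 0.1). Of all 12329 genes tested there, 6931 (pseudocount 1) and 6913 (pseudocount 0.1) were called. Collagen chains fell to 5 (3 lower) with a filter of 1 FPKM in 3 libraries, where 7488 of 12329 genes were called. They fell to 4 (2 lower) under limma with either pseudocount. Fewer genes were tested in these settings. The cause was not tested for the other shifts. The log2 ratio of BAG2 to STUB1 differed by -0.064 to 0.15 in the runs without 1 library, so its direction was not stable. Depth limits HSPB8, and CRYAB above all.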
